A study of Drosophila melanogaster with 2 samples.

Results

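The regions described here are the 266 autosomal promoter peaks of CLAMP-GFP that hold a GA repeat at their summit. They were taken from the optimal set, the list that the authors derived from both replicates together, which held 3071 peaks on the 5 large chromosome arms and 6 on chromosome 4. A peak was kept when it lay on 2L, 2R, 3L or 3R, when its summit was within 500 bp of the transcription start site (TSS) of a protein-coding or ncRNA transcript, and when the 100 bp on each side of the summit held an uninterrupted alternation of G and A of at least 8 bp on either strand, called a GA run below. Of the 2281 autosomal peaks 819 were promoter peaks, and 266 of these held a run (32.5%, exact binomial 95% interval 29.3 to 35.8%). The share was 27.8% on 2L (45 of 162), 32.6% on 2R (73 of 224), 34.1% on 3L (63 of 185) and 34.3% on 3R (85 of 248). Of the X promoter peaks 41.6% held a run (107 of 257, 35.5 to 47.9%). A run was present at 1057 of all 3071 optimal peaks on the 5 arms, so it is not particular to autosomal promoter peaks. No measured signal entered the choice beyond membership of the optimal set.

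The data are ChIP-seq of whole Drosophila melanogaster embryos of mixed sex, aged 0 to 24 h, from a transgenic line that makes CLAMP (CG1832) with GFP fused to its C-terminus. Immunoprecipitation used an antibody against GFP on chromatin sonicated to 200 to 800 bp. There were 2 biological replicates, numbered 4 and 2, which form 1 group. No second condition was analysed here, so no test between groups exists, and the embryos are a mixture of all cell types and stages of that day. The intervals below are exact binomial 95% intervals for counting error, which treat peaks as independent although neighbouring peaks are not. Read depth is unknown from peak lists.

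CLAMP is a zinc-finger protein that binds GA repeats. It is best known for its part in dosage compensation, where it helps to bring the male-specific lethal complex to the X chromosome, but it also binds at many autosomal promoters. GAGA factor, encoded by Trl, is another GA-binding protein of the fly and uses similar sequences.

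The strongest peaks are represented here by 9 of them, each with the 30 bases around its longest GA run, so that the interrupted repeats beside the run can be read. Coordinates are dm6 (Release 6 assembly, RefSeq sequence), the strand is the one that reads GA, and capitals mark the run.
Ptx1, chr3R:30912518-30912547, plus strand: gggtctgagtGAGAGAGAGcgagagagtgc
lbe, chr3R:21446448-21446477, minus strand: agacagagaaAGAGAGAGAGAcagagagtg
kay, chr3R:29773061-29773090, minus strand: aacgggggtGAGAGAGAGAGAcagagagag
mid, chr2L:5461331-5461360, plus strand: cgcgttcgtcAGAGAGAGAGgtgaggcgaa
abd-A, chr3R:16830224-16830253, minus strand: agagcgggaaAGAGAGAGAGAacagcggcg
svp, chr3R:12281044-12281073, plus strand: tatggggagcgGAGAGAGAtttgtgtgatg
Dr, chr3R:29556262-29556291, plus strand: ccacgggagtGAGAGAGAGgcacgctctac
Src64B, chr3L:4626179-4626208, plus strand: atgctctgaaAGAGAGAGAGggaatgcacc
scyl, chr3L:11252157-11252186, minus strand: cgcaagagcgcGAGAGAGAGggatataaca
The runs of these strong peaks were short, 8 to 12 bp. At Ptx1, lbe and kay the repeat went on after a single foreign base.

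Runs of 30 bp or more are shown for comparison at 3 peaks. The run was 35 bp at CG42671 (chr3L:11215700-11215734), 31 bp at mtd (chr3R:5283016-5283046) and 30 bp at siz (chr3L:21047923-21047952), and the 30 bases at the centre of all 3 read the same on the minus strand.
CG42671, mtd and siz: GAGAGAGAGAGAGAGAGAGAGAGAGAGAGA
Their signal values in the optimal set were 275, 491 and 213. The signal is the authors' own value for a peak, and it is used here within 1 list at a time, to order and describe its peaks.

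The 266 peaks included few of the weakest ones. Their median signal was 427 (quartiles 256 and 941), against 333 (173 and 826) for the 553 autosomal promoter peaks without a run. The 304 autosomal intron peaks with a run had a median of 294 (187 and 563), and the 107 X promoter peaks with a run one of 427 (213 and 954). The difference from promoter peaks without a run lay in the lower part of the range. Among the 1000 weakest peaks of the optimal set were 34 of the 266 peaks (12.8%) and 154 of the promoter peaks without a run (27.8%). Among the 300 strongest were 48 (18.0%) and 84 (15.2%). Over all 3071 optimal peaks of the large arms the 2 shares were 32.5% and 9.74%. They were 16.8% and 17.8% at X promoter peaks with a run, and 24.3% and 7.57% at autosomal intron peaks with one. A low share of weak peaks was thus not particular to the 266 peaks. The ratio of the medians, autosomal promoter peaks with a run over those without, was 1.28 in the whole set. When only the stronger 50% of the optimal peaks were considered, it was 0.877. It was 2.04 in replicate 4 alone, without replicate 2, and 1.14 in replicate 2 alone, without replicate 4.

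**Figure D1:**
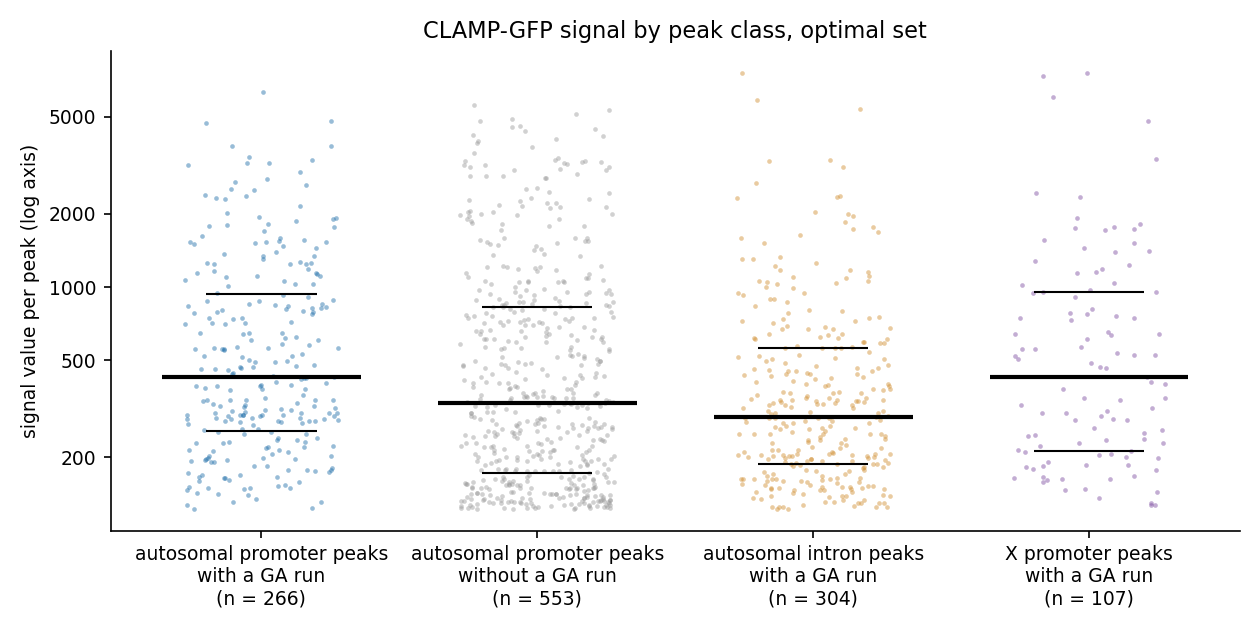
Signal value of each optimal peak (log axis) in 4 classes: autosomal promoter peaks with a GA run, autosomal promoter peaks without one, autosomal intron peaks with one and X promoter peaks with one. Thick bars are medians (427, 333, 294 and 427) and thin bars quartiles; the peaks without a run crowd at the bottom of the range.

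The 3 strongest of the 266 peaks lay at homeobox genes. At Ptx1, a homeobox gene, the pooled signal was 6296, and the values were 5007 in replicate 4 (rank 5) and 1284 in replicate 2 (rank 12). At lbe, a homeobox gene of muscle and heart progenitors, the pooled signal was 4804, with 3542 in replicate 4 (rank 23) and 1259 in replicate 2 (rank 13). At inv, a homeobox gene of the posterior compartment, it was 4734, with 3629 (rank 19) in replicate 4 and 1116 (rank 27) in replicate 2. These 3 summits were thus near the top of both lists, each of which held 30000 regions. The pooled signal that orders the peaks is close to the sum of the replicate values. High ranks in both lists therefore follow in part from that order.

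The next peaks were at kay, which encodes the fly Fos protein (pooled signal 3797), mid, a T-box gene (3793), abd-A, a Hox gene (3434), svp, a nuclear receptor gene (3325), and Dr, a homeobox gene of dorsoventral patterning (3238). Psc, a Polycomb group gene, had 3231 and en, the neighbour of inv and likewise a segment polarity homeobox gene, 3183. They were followed by gsb, a Pax gene (2974), Src64B, a tyrosine kinase gene (2787), lola, a BTB zinc-finger gene (2689), and scyl (2628). Then came the wing selector gene vg (2527), the zinc-finger gene erm (2499), the ETS gene pnt of the EGF receptor pathway (2389), the forkhead gene croc (2360) and lncRNA:CR46454 (2325). The 25 strongest ended with L (2291), lncRNA:CR45805 (2157), lncRNA:CR46336 (2015), the GATA gene pnr (1933), the POU gene pdm3 (1913) and lbl, the neighbour of lbe (1899). The summit named by lncRNA:CR45805 also lay within 500 bp of a TSS of Pdk1, a kinase gene. In replicate 4 all 25 ranked 174 or better, and in replicate 2 all ranked 250 or better, which the order by pooled signal partly fixes.

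Genes with a known role in transcription were frequent among the strong peaks and less so further down. Of the 25 strongest peaks 14 had a gene of the homeobox, zinc-finger, bHLH, Sox, forkhead, T-box, Pax, nuclear receptor, GATA or ETS lists within 500 bp (56%, 34.9 to 75.6%). The count was 27 of the 67 strongest peaks (40.3%), 3 of the next 67 (4.48%), 9 of the next 66 (13.6%) and 7 of the 66 weakest (10.6%). The 46 such peaks had a median signal of 1254 and the other peaks one of 396. Promoter peaks without a run showed the same kind of gap, with medians of 957 at the 81 peaks near genes of these lists and 290 at the others. The share of peaks near these genes was 17.3% with a run (12.9 to 22.4%) and 14.6% without (11.8 to 17.9%), so the intervals overlapped.

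Counted by gene, 44 of the 195 autosomal genes of these transcription factor lists had one of the 266 peaks (22.6%), beside 2.09% of all 11669 autosomal protein-coding genes (244 genes). The lists were chosen with earlier results of these data known, so the excess is a description. A promoter peak of any kind was present at 108 of the 195 genes (55.4%), and 44 of those 108 had a peak with a run (40.7%, 31.4 to 50.6%). Among all autosomal protein-coding genes 719 had a promoter peak (6.16%) and 244 of them one with a run (33.9%, 30.5 to 37.5%). These last intervals overlapped.

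The lists are selections and do not hold every gene of a class; vg, erm, pdm3 and kay above are on none of these 5. Homeobox genes of the list had a GA-run peak in 19 of 59 cases (any promoter peak in 43). Beside those above they included Gsc, with a signal of 1699, and the Hox gene Scr, which carried 2 of the peaks (1763 and 1591) at separate TSSs. The zinc-finger list, which lacks erm, had one in 11 of 40 genes (any promoter peak in 24), and lola, Trl and the trunk homeotic gene tsh were among them. The peak at Trl had a pooled signal of 1874, with 1328 in replicate 4 and 536 in replicate 2, and a run of 20 bp. At tsh the pooled signal was 1168. The combined Sox, forkhead, T-box and Pax list had one in 7 of 30 (any in 20), led by mid, gsb and croc. Nuclear receptor, GATA and ETS genes had one in 3 of 32 (any in 13), namely svp, pnt and pnr. Of 34 bHLH genes 4 had one (any in 8), led by the tracheal gene trh (1535), crp (912) and the Notch target E(spl)mbeta-HLH (333).

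The shares of the next lists stand beside 2.09% of all autosomal protein-coding genes. RNA-binding regulators had a GA-run peak in 8 of 27 genes (29.6%, 13.8 to 50.2%) and any promoter peak in 9. The strongest were at mub, a KH-domain gene (1109), brat, a translational repressor gene (841), and bru2 (783). In the Polycomb and trithorax group list 6 of 32 genes had one (18.8%, 7.21 to 36.4%, any in 9), led by Psc, Trl and Asx (1114). GA-binding and insulator protein genes had one in 4 of 24 (16.7%, 4.74 to 37.4%, any in 9). These were lola, Trl, psq, which encodes a further GA-binding BTB protein (230), and pita (177), a peak that also lay within 500 bp of a TSS of the caspase gene Dcp-1.

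Signalling ligand and receptor genes had a GA-run peak in 6 of 51 cases (11.8%, 4.44 to 23.9%, any promoter peak in 14). Their strongest were at bnl, which encodes an FGF ligand (1782), the netrin receptor gene unc-5 (849) and the insulin receptor gene InR (563). Cell cycle genes had one in 3 of 34 (8.82%, 1.86 to 23.7%, any in 8). These were at Cdk4 (383), the Cdk inhibitor gene dap (339) and Dp, which encodes a partner of E2F (176). Single genes carried one in 3 further lists. They were Hsp27 of 19 heat shock and chaperone genes (398), Syx1A, which encodes a syntaxin of synaptic release, of 28 neuronal genes (878), and the tropomyosin gene Tm1 of 19 muscle genes (1255). Of 1890 microRNA and long noncoding genes 29 had one (1.53%).

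Several lists had none of the 266 peaks, beside 2.09% of all autosomal protein-coding genes, a share that lies within each of the intervals of these lists. These were 77 cytosolic ribosomal protein genes (upper bound of the interval 4.68%), 62 mitochondrial ribosomal protein genes (5.78%), 42 proteasome genes (8.41%), 105 odorant and gustatory receptor genes (3.45%) and 17 protein phosphatase and G protein genes (19.5%). Promoter peaks without a run were present at 3 of the cytosolic, 2 of the mitochondrial and 4 of the phosphatase and G protein genes.

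In all, 11 of 284 genes had more than 1 of the peaks within 500 bp of a TSS. Diap1, which encodes an inhibitor of apoptosis, had 3 (signals 554, 442 and 343). Scr, Tm1, grh, pnt, pum, Egfr, L, CG6231, CG6329 and CG6424 had 2 each. The peaks were rarely close to one another, since another of the 266 lay within 1000 bp for 6 peaks. Another optimal peak of any kind lay within 5000 bp for 128 (48.1%).

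The summits lay mostly upstream of the TSS. Of the 266 peaks 185 had their summit upstream (69.5%, 63.6 to 75.02%), against 57.1% (52.9 to 61.3%) of promoter peaks without a run. These intervals did not overlap. The rule requires a run, however, and the longest run was upstream at 187 peaks (70.3%). All 1723 GA runs within 500 bp of an autosomal TSS, with or without a peak, were mostly upstream too. From 500 bp upstream to the TSS the successive stretches held 250, 181, 344 and 398 runs, and those downstream 118, 215 and 217. Whether the summits exceed that background was not tested. The X promoter peaks with a run had 60.7% upstream (50.8 to 70.0%). The median position was 110 bp upstream, and 116 summits (43.6%) were more than 100 and up to 300 bp upstream. By annotation 101 summits were in introns, which at genes with several start sites can lie upstream of an internal TSS, 76 were intergenic, 64 in 5' UTRs, 22 in other exons, 2 in coding exons and 1 in a 3' UTR. The nearest TSS was that of a protein-coding transcript for 229 and of an ncRNA for 37.

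**Figure D2:**
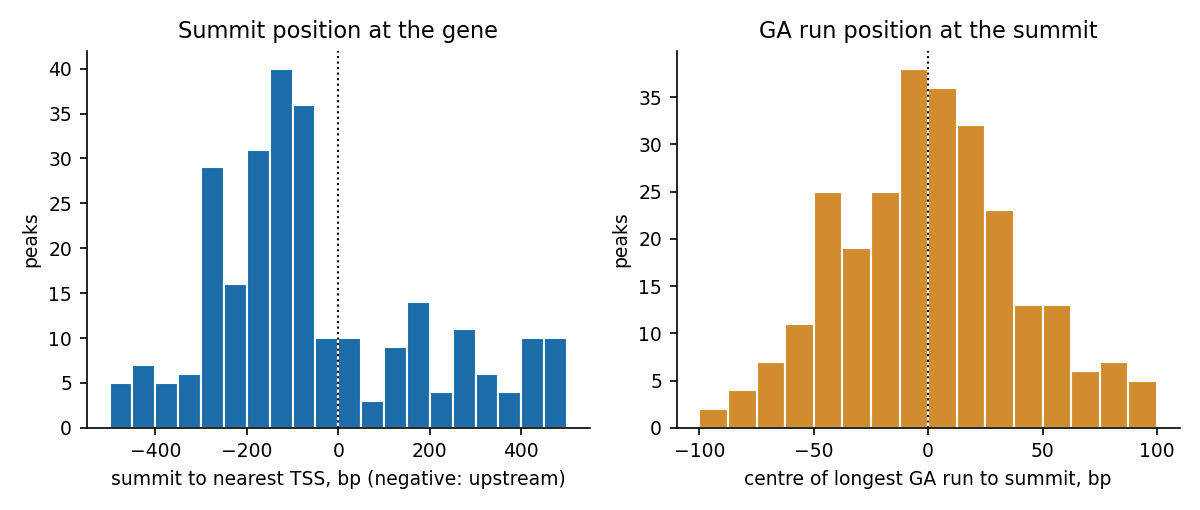
Left, distance in bp from the nearest TSS to the summit of each of the 266 peaks (negative values are upstream, bins of equal width); right, distance in bp from the summit to the centre of the longest GA run. Most summits (185) lie upstream of the TSS, and 131 run centres lie within 25 bp of the summit; the rule confines both axes.

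Divergent promoters were counted by TSSs near the summit. TSSs of different genes on opposite strands lay within 500 bp of the summit for 13 peaks (4.89%, 2.63 to 8.21%), against 51 of the promoter peaks without a run (9.22%, 6.94 to 11.9%). The intervals overlapped. The share among peaks with a run was 1.73% when the TSS distance was 250 bp and 15.8% (57 of 361) when it was 1000 bp, so its size depends on the distance chosen. Around all autosomal TSS positions the share was 24.0%, but those windows are centred on a TSS and not on a summit, so that share has another base.

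The run lay close to the summit, as far as the window of the rule lets it vary. The longest run had its centre within 25 bp of the summit at 131 peaks (49.2%, 43.1 to 55.4%) and within 50 bp at 211. It covered the summit base at 43. The share within 25 bp was 52.6% at autosomal intron peaks with a run and 53.3% at X promoter peaks with a run. Over all 1057 optimal peaks with a run it was 53.2%, so closeness was not particular to the 266 peaks. A single run was present in 189 windows, 2 runs in 69, 3 in 7 and 4 in 1, a peak of signal 1273 at lncRNA:CR46258. The strand of the gene with the nearest TSS read GA at 152 peaks (57.1%, 51.0 to 63.2%). For the intron peaks with a run this share was 38.5% (33.0 to 44.2%), and for the X promoter peaks it was 59.8% (49.9 to 69.2%). The intervals of the autosomal promoter and intron peaks did not overlap, but the 2 shares are not alike in kind. The nearest TSS was a median of 2721 bp from an intron peak, against 176 bp here, and need not belong to the gene of that intron. Of all 1723 GA runs within 500 bp of an autosomal TSS, with or without a peak, 908 had GA on the gene's strand and 815 on the other.

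The run lay somewhat further from the summit in strong peaks than in weak ones. The median distance from the run's centre to the summit was 33 bp in the 67 strongest peaks, 28 bp and 22.75 bp in the middle groups of 67 and 66, and 22 bp in the 66 weakest. Seen the other way, the median signal was 783 at the 55 peaks with a run over 50 bp away, 464 at the 80 with a run 26 to 50 bp away and 383 at the 131 with a run within 25 bp. Across the 266 peaks the Spearman rho of signal and distance was 0.16, a weak relation across sites that share both libraries. Single strong peaks lay on either side. At Psc the run was 79.5 bp from the summit, at svp 67.5 bp and at Ptx1 58 bp, but it was 3.5 bp away at kay, 7.5 bp at en and 11 bp at lola. Of the 25 strongest peaks 8 had the run within 25 bp (32%).

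Signal did not follow run length or the number of runs. The longest run had a median of 10 bp and a range of 8 to 35 bp. The median signal was 459 at 157 peaks whose run was 8 to 11 bp long, 345 at 83 with 12 to 19 bp and 447 at 26 with 20 bp or more. The rho of signal and run length was -0.08, and that of signal and the number of runs -0.0047. Beside GC content of the 201 bp window rho was 0.24. Long and strong did coincide at single genes, such as lncRNA:CR45805 (29 bp, signal 2157). The other named long runs were weaker, at CG34386 (25 bp, 465), Xrp1, a bZIP gene of cell competition (25 bp, 420), lncRNA:CR45911 (27 bp, 324) and lncRNA:CR42736 (30 bp, 198).

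Other promoter motifs were rare in the windows. Each was searched on both strands in the 201 bp around the summit, and none of them can lie inside a GA run. TATAAA was found in 17 windows (6.39%, 3.77 to 10.04%), against 8.86% of promoter peaks without a run. The share among peaks with a run was 12.5% (34 of 272) in replicate 2 alone, without replicate 4, and the cause was not tested. The 8.86% belongs to the optimal set, and the share without a run was not counted in replicate 2 alone. Windows of the same length around all 18129 autosomal TSS positions held it in 27.4%, with the difference in centring noted above. In the stretch 20 to 45 bp upstream of the TSS itself, a count added after the first values had been seen, TATAAA was present at 12 of the 266 promoters (4.51%), at 5.06% of those without a run and at 7.02% of all autosomal TSSs. The peaks at scyl (2628) and lncRNA:CR45805 (2157) were the strongest whose windows held TATAAA.

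The DRE element TATCGATA was in 2 windows (0.752%, 0.0912 to 2.69%), against 0.723% of promoter peaks without a run and 5.23% of TSS windows. GGTCACAC, the core of the Ohler 1 motif, was in 1 (0.376%), against 1.45% and 5.03%. CAGGTAG, a site of the early activator Zelda, was in 6 (2.26%, 0.832 to 4.84%), against 1.63% and 1.10%. For these 4 motifs the intervals of peaks with and without a run overlapped. A missing match says only that these letters are not in the window.

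The annotated promoters hold many more GA runs than carry a peak. Within 500 bp of an autosomal TSS there were 1723 runs of 8 bp or more, and an optimal summit lay within 100 bp of 351 of them (20.4%, 18.5 to 22.4%). These are called occupied below, and neighbouring runs can share a summit. Farther from a TSS 597 of 6683 autosomal runs were occupied (8.93%, 8.26 to 9.64%), and at X promoters 148 of 481 (30.8%, 26.7 to 35.1%). Including the weaker regions of the pooled list, 505 of the promoter runs had a summit within 100 bp (29.3%).

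Occupancy increased with run length up to about 12 bp. At autosomal promoters it was 15.99% for runs of 8 to 9 bp (13.9 to 18.3%), 23.1% for 10 to 11 bp, 31.1% for 12 to 15 bp (24.6 to 38.2%), 29.1% for 16 to 19 bp and 35.8% for 20 bp or more (25.4 to 47.2%). The last 3 classes did not differ beyond their intervals. Away from TSSs the share went on increasing, from 6.16% in the shortest class through 12.9% for 12 to 15 bp to 29.4% for 20 bp or more (23.8 to 35.5%). For the longest runs the promoter and non-promoter intervals overlapped, whereas for the shortest they did not. Length thus went with whether a promoter run was occupied, and not with the signal of the peaks.

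**Figure D3:**
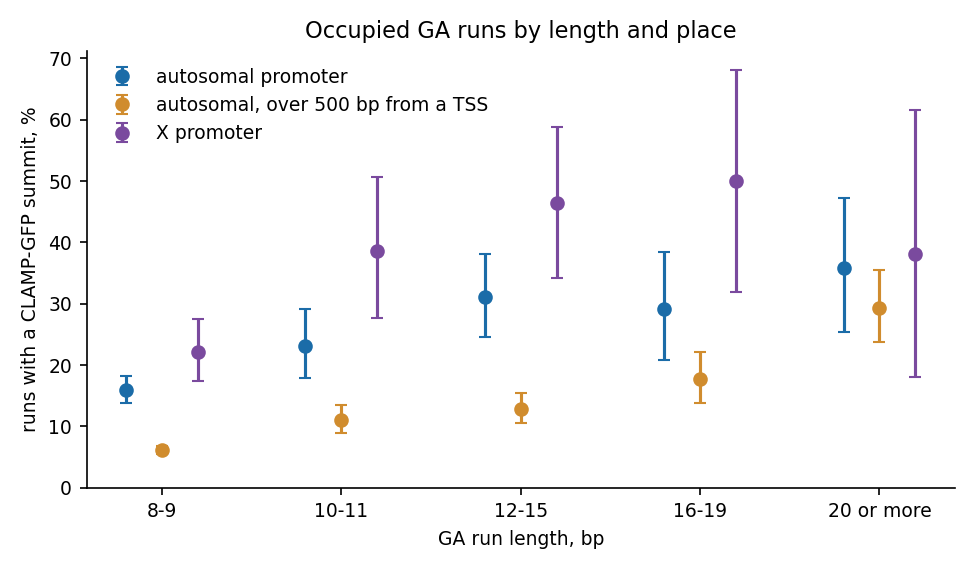
Share of GA runs with an optimal summit within 100 bp (percent, exact binomial 95% intervals) by run length in bp, for runs at autosomal promoters, at autosomal sites over 500 bp from a TSS and at X promoters. Promoter runs of 8 to 9 bp were occupied in 15.99% of cases and distal ones in 6.16%, whereas for runs of 20 bp or more the values were 35.8% and 29.4%, with overlapping intervals.

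Runs 100 to 300 bp upstream of the TSS were occupied most often. The share was 32.0% from 300 to 200 bp upstream (58 of 181) and 25.9% from 200 to 100 bp upstream (89 of 344). In the other stretches it was between 13.6%, in the 100 bp downstream of the TSS, and 18.6%. Of all runs 100 to 300 bp upstream 28% were occupied (24.2 to 32.1%), and of the other promoter runs 17.03% (14.9 to 19.3%). With replicate 4 alone, cut to as many of its strongest regions as there are optimal peaks, these shares were 25.7% and 13.5%. With replicate 2 alone they were 23.4% (19.9 to 27.3%) and 19.2% (17.0 to 21.5%), which overlapped. Runs with GA on the gene's strand were occupied in 22.2% of cases (19.6 to 25.1%) and those with GA on the other strand in 18.3% (15.7 to 21.1%).

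Occupied runs stood in purine-rich surroundings. In the 20 bp on each side of the run, read on the GA strand, 67.9 ± 11.1% of bases were purines at the 351 occupied runs and 59.9 ± 12.0% at the 1372 unoccupied ones (SD over runs). A further GAGA or AGAG was present in these flanks at 290 occupied runs (82.6%, 78.2 to 86.4%) and 819 unoccupied ones (59.7%, 57.0 to 62.3%). Neighbouring runs can share a summit and lie in each other's flanks, and 77 of the 266 windows held 2 or more runs. The intervals treat such runs as independent. The continued repeats at Ptx1, lbe and kay printed above are examples. The difference was also present among short runs of 8 to 11 bp, at 79.7% of occupied and 57.3% of unoccupied ones. Runs with such a flank were occupied in 26.1% of cases and runs without it in 9.93%. The 2 shares were 22.3% and 8.14% with replicate 4 alone, and 25.2% and 11.9% with replicate 2 alone. The comparisons of flanks and of GC content were added after the first values had been seen.

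GC content moved with occupancy as well. The 201 bp around occupied runs had a median GC content of 50.2%, and that around unoccupied runs 45.8%. Occupancy was 1.65% for runs in windows under 40% GC (0.538 to 3.81%), 12.6% from 40 to 45%, 24.1% from 45 to 50%, 28.6% from 50 to 55% and 43.5% over 55% (35.8 to 51.3%). The replicates had unlike slopes. In replicate 4 alone the share was 0.660% in the lowest and 44.0% in the highest class, and in replicate 2 alone 6.93% and 32.1%. Runs with a GAGA or AGAG flank had the higher share in each GC class, but the gap was small in the lowest classes. It was 5 of 152 against 0 of 151 runs under 40% GC and 14.9% against 9.03% from 40 to 45%. The shares were 28.7% against 14.0% from 45 to 50%, 35.1% against 13.4% from 50 to 55% and 50.8% against 23.9% over 55%. No intervals were computed for these shares. The part that GC content of the libraries has in these shares was not tested.

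**Figure D4:**
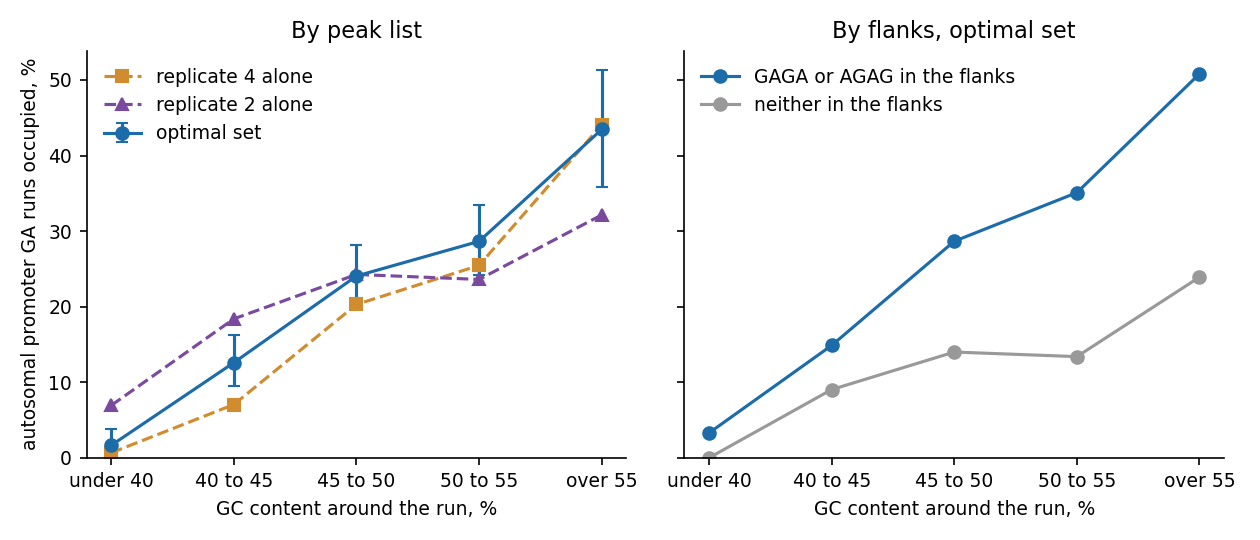
Percent of autosomal promoter GA runs that were occupied, by GC content (percent) of the 201 bp around the run. Left, the optimal set with exact binomial 95% intervals and each replicate alone, with 1.65% in the lowest and 43.5% in the highest class of the optimal set; right, the optimal set divided by whether the flanks hold GAGA or AGAG, where runs with such a flank lie higher in all classes.

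Most of the 266 peaks were found in both replicates. A peak counted as found when a region of the replicate's list had its summit within 200 bp. In both lists 223 were found (83.8%, 78.8 to 88.05%), beside 80% of all optimal peaks on the 5 arms and 80.3% of autosomal promoter peaks without a run. In replicate 4 the count was 227 (85.3%, beside 85.6% of all optimal peaks), and in replicate 2 it was 262 (98.5%, beside 93.9%). All of the 50 strongest were found in both. The share found in both was 97.0% in the 67 strongest peaks and 71.2% in the 66 weakest. The optimal set came from both replicates, and strength here is the pooled signal. These shares are therefore no independent measure of agreement. For the peaks found in both, the rho of the replicates' signals was 0.86 (n = 223), beside 0.80 over all such optimal peaks (n = 2458).

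**Figure D5:**
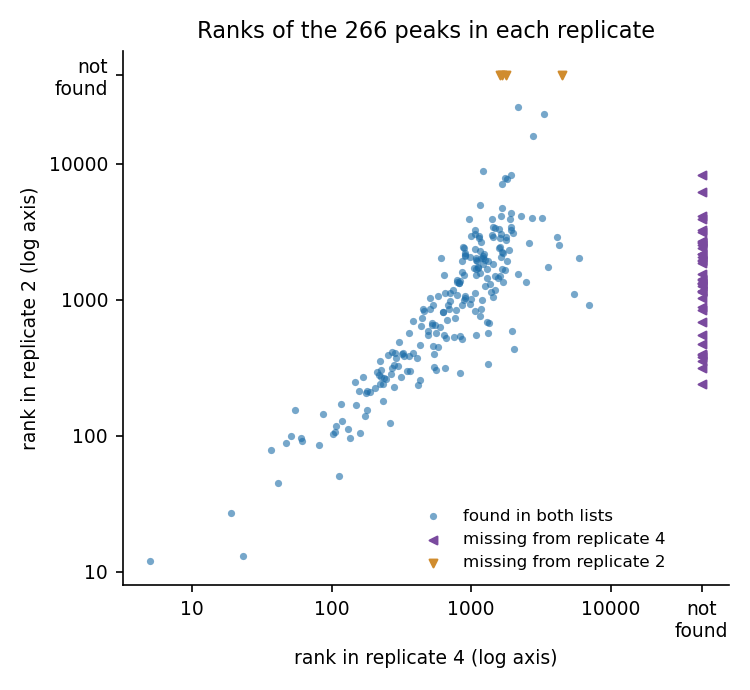
Rank of each of the 266 peaks in the list of replicate 4 (horizontal) and of replicate 2 (vertical), both on log axes, with rank 1 the strongest of 30000 regions. Triangles at the margins mark the 39 peaks missing from replicate 4 and the 4 missing from replicate 2.

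The peaks missing from replicate 4 were not only weak ones. There were 39, with a median signal of 292, against 471 for the 227 found. The strongest were at lncRNA:CR42549, which shares its promoter region with mura (1246), the homeobox gene exex (1137), Syx1A (878), the cell death gene skl (836) and CrebA, a bZIP gene of secretory cells (831). The peaks with the long runs shown above, at CG42671, mtd and siz, were missing from replicate 4 too, but that at lncRNA:CR42736 was found in both lists. Of the 26 peaks with a run of 20 bp or more 21 were found in both (80.8%). The share was 79.5% for runs of 12 to 19 bp and 86.6% for 8 to 11 bp. The median GC content was 49.3% at the missing and 51.2% at the found peaks.

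The pooled signal of a peak was close to the sum of its replicate values, and at the missing peaks the sum fell short. At the 223 peaks found in both lists the sum was 0.997 of the pooled value in the median (quartiles 0.982 and 1.01), and replicate 4 gave 72.8% of it. At exex the pooled signal was 1137 and that of replicate 2 was 360, which leaves 778, a value that would rank 353 in the list of replicate 4. At lncRNA:CR42549 the remainder was 821, which would rank 339. Over the 39 peaks the remainder had a median of 62.1% of the pooled value, and it exceeded the lowest signal in the list of replicate 4 (35.8) in 38 of them, and in 33 it would place the peak among as many of that list's strongest regions as there are optimal peaks. The nearest region of that list was a median of 2971 bp away. Why no region is listed there was not tested. Among all optimal peaks missing from replicate 4 and found in replicate 2 the remainder exceeded the lowest signal in 381 of 427.

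The 4 peaks missing from replicate 2 were at Egfr, the EGF receptor gene (254), Rbp6, an RNA-binding protein gene (161), daw, which encodes an activin-like ligand (151), and kcc, a cotransporter gene (150). At Rbp6, daw and kcc the remainder after the value of replicate 4 was 15.9, 2.75 and 18.8, against a lowest signal of 15.6 in the list of replicate 2. At Egfr it was 176, and a region of replicate 2 lay 201 bp away, just beyond the distance that counted as found. The median GC content of the 4 windows was 57.2%, against 50.7% for the 262 found.

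The limits of the rule cut through groups of like peaks. Just inside the distance of 500 bp lay nmo (491 bp, signal 223), ham (493 bp, 1103) and unc-5 (500 bp, 849). Just outside lay KrT95D (502 bp, 285), dac, with a strong peak (502 bp, 3237), and lncRNA:CR45659 (507 bp, 150). The runs nearest to the edge of the window were at CG3164, Tm1 and CG6424 inside it, with centres 96, 96.5 and 99 bp from the summit. Outside it they were at lncRNA:CR43459, Polr1D and lncRNA:CR45393, at 98, 100 and 103.5 bp, since at least 8 bp of the run had to lie within the window.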

How the data were processed

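The deposited dm6 peak lists were used: the optimal set, the pooled list and a list for each of the 2 replicates. Per the deposited text files, each list was called against 1 control file, and the optimal set came from an irreproducible discovery rate step. The aligner, the peak caller, the threshold of that step and any depth scaling are steps not given in the sources used here. Each deposited signal value is the authors' own, on a scale that is not stated. It served to order and describe peaks. TSSs came from transcripts of the BDGP annotation 6.54 (Ensembl release 115), and GA runs from the Release 6 genome sequence. Replicate values are those of the listed region with the nearest summit within 200 bp. The methods were tested on simulated data with planted runs and summits.

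With 1 group, no test was made. The genes named are those nearest to the 25 strongest peaks and the 8 longest runs, up to 3 of each of 19 gene lists, the 5 strongest peaks missing from a replicate, and the peaks at the limits of the rule. Genes outside it (the peaks missing from replicate 2, genes with several peaks, and Gsc, Scr, pita, mura, Pdk1, Dcp-1 and lncRNA:CR46258) were added once their values were known. The peaks and lists were chosen with earlier results of these data known. Alternatives were other run lengths, windows, distances and TSS classes, the stronger 50% of the optimal peaks, and each replicate alone, cut to as many regions as there are optimal peaks. The dm3 lists were not used. Python 3.11.15, numpy 2.4.6, scipy 1.17.1, pandas 2.3.3 and matplotlib 3.10.9 were used.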

Additional observations from a re-analysis of the deposited data

How the results depend on the processing

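The number of peaks depended on the rule's limits. It was 150 with runs of at least 10 bp, 108 with at least 12 bp and 173 with a TSS within 250 bp, and 224 to 272 in either replicate alone. The ratio of median signals, peaks with a run over promoter peaks without one, was 1.28. It turned to 0.877 among the stronger 50% of optimal peaks, and was 2.04 without replicate 2 and 1.14 without replicate 4. The share found in both replicates was 88.2% among the stronger 50%. Runs within 25 bp of the summit were 63.4% with a window of 50 bp each side and 40.1% with 200 bp, since the window bounds the distance. TATAAA was present in 5.36% of windows without replicate 2 and in 12.5% without replicate 4, and the cause was not tested. Divergent promoters were 1.73% with a TSS distance of 250 bp and 15.8% with 1000 bp. Occupied promoter runs were 15.6% with a summit within 50 bp, 24.7% within 200 bp, 14.97% with the stronger 50% and, in either replicate alone, 17.2 to 20.5%. The ratio of the median signal of peaks with a run of 12 bp or more to those with 8 to 11 bp was 0.832, and 0.762 among the stronger 50% and 0.845 to 0.861 in either replicate alone. The count of homeobox genes with a GA-run peak was 19, and 17 to 18 in either replicate alone. Using TSSs of all transcripts of protein-coding and ncRNA genes, an alternative chosen after seeing the data, gave 268 peaks. No paired analysis was possible because the 2 replicates form 1 group with no second group to pair them with. Peak lists give no depth, so a peak absent from a list cannot be read as unbound.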
